A study of Caenorhabditis elegans with 43 samples.

Results

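The changes described here are those of atfs-1(et17) worms (et17), a gain-of-function strain of *Caenorhabditis elegans*, against wild-type worms (N2 Bristol) sequenced in the same batch. Of the 43 RNA-seq libraries of the series, 6 are et17 and 3 are the wild-type libraries of that batch, so 9 libraries enter the comparison. All were made from whole prefertile young adults grown on OP50 bacteria, each from a plate of synchronized worms, and RNA was isolated separately for each. The et17 strain carries a point mutation in *atfs-1* itself and no transgene, and 5 libraries of a second gain-of-function strain, et15, and 3 of an *atfs-1* deletion strain (labelled atfs1DEL, with no allele named in the label) came from the same sequencing batch. Values are read counts relative to the depth of the library, as scaled by the authors (normalized CPM), for the 13837 genes that passed the authors' filter.

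ATFS-1 is a transcription factor that is normally imported into mitochondria and degraded there. When import slows, it accumulates in the cytoplasm, enters the nucleus and turns on the mitochondrial unfolded protein response (mitoUPR), a program that includes mitochondrial chaperones, proteases and import components. The et17 mutation weakens the mitochondrial targeting sequence, so that the protein reaches the nucleus without mitochondrial stress. In worms the response is best known through *hsp-6*, the mitochondrial HSP70, and is studied for its part in lifespan and stress resistance.

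Each et17 library held 30608444 to 37596520 reads counted on genes, and each wild-type library of the batch 34767878 to 36403473. The wild-type libraries were not alike in stage markers: summed yolk genes (vit genes, which are made by adults) stood at 57470, 27020 and 76680 normalized CPM in wild-type replicates 1, 2 and 3, against 22090 to 46590 in the et17 libraries. Summed molting genes, which mark the larval to adult transition, were at 275.0 to 825.1 normalized CPM in the et17 libraries and at 193.8, 649.9 and 173.5 in the wild-type libraries. Wild-type replicate 2 therefore lay within the et17 range for both sums, and wild-type replicates 1 and 3 lay outside it on the side with more yolk and less molting RNA. None of the 69 genes of the yolk, molting, oocyte and sperm lists passed the test between et17 and wild type (limma, with 3 at an unadjusted p under 0.05, edgeR 0, DESeq2 0). In whole worms, a change in the number of cells of a type cannot be told apart from a change in RNA per cell.

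**Figure D1:**
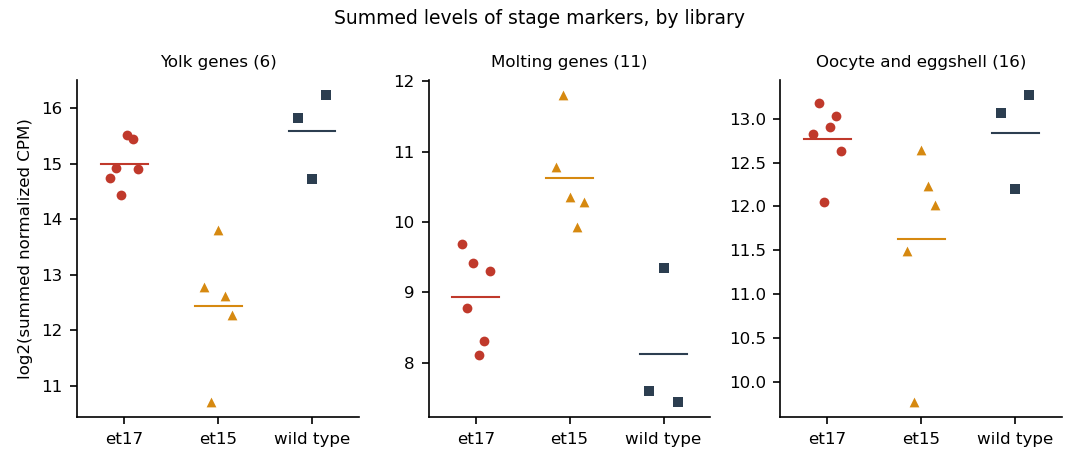
Summed normalized CPM (log2 scale) of 6 yolk, 11 molting and 16 oocyte and eggshell genes in each library of et17 (6), et15 (5) and batch 1 wild type (3), with horizontal lines at group means. Wild-type replicate 2 sits among the et17 libraries, while the et15 libraries have less yolk RNA and more molting RNA than any et17 library.

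The altered gene was measured first. *atfs-1* mRNA (chromosome V, 14193663 to 14197700, WBcel235) ranged from 73.7 to 127 (median 88.8) normalized CPM in the et17 libraries, against 66.9, 64.05 and 79.8 in the wild-type libraries. The groups overlapped, and the difference did not pass the test (log2 fold change 0.38 ± 0.24, adjusted p = 0.545, SE of the log2 fold change, limma). A point mutation leaves the transcript in place, so its level does not check the genotype label. In the deletion strain the same gene stood at 25.5 ± 0.937 normalized CPM (mean ± SD, n = 3), below every et17 library.

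Against wild type, 528 of the 13837 genes passed the test (adjusted p under 0.05, limma), which is 3.82% of those tested. Of these, 376 were higher in et17 worms (2.72%) and 152 were lower (1.1%), while the median gene changed by -0.02 on the log2 scale. The rises were larger than the falls: 216 genes rose and 40 fell by at least 2-fold, and 22 rose and 1 fell by at least 8-fold. The median log2 change was 1.15 among genes that rose and -0.70 among those that fell. In 119 of the 376 genes that rose, the wild-type mean was under 1 normalized CPM. With library size as the only scaling the split was 469 higher and 62 lower with the median of all genes at 0.09. In 1152 genes (8.33%) the 6 et17 and 3 wild-type libraries did not overlap, in 655 with et17 higher (4.73%) and in 497 with et17 lower (3.59%). The counts also depended on the 3 wild-type libraries: 259 genes were higher and 55 lower without wild-type replicate 1, 504 and 167 without replicate 2, and 243 and 60 without replicate 3. An additive batch term gave 504 higher and 388 lower, a stage index as covariate 588 and 203, and the 9 libraries alone 331 and 76.

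**Figure D2:**
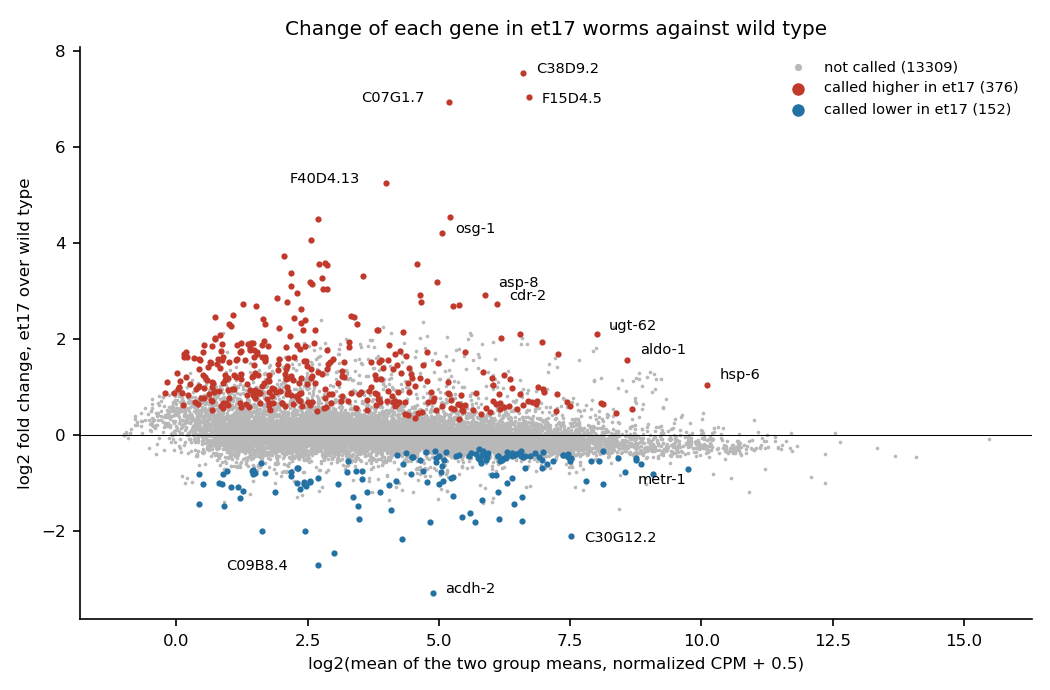
Each of the 13837 genes, with its mean level on the x axis (log2 of normalized CPM + 0.5) and its log2 fold change, et17 over wild type, on the y axis. Red points (376) were called higher and blue points (152) lower, and the largest changes are rises of genes with little RNA in wild-type worms, led by *C38D9.2*, *F15D4.5* and *C07G1.7*.

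The 3 largest rises were of genes known only by sequence names, all annotated as protein coding. *C38D9.2* (chromosome V, 17567150 to 17571742) ranged from 172 to 215 (median 198) normalized CPM in the et17 libraries, against 0.565, 0.599 and 0.459 in the wild-type libraries (log2 fold change 7.54 ± 0.27, adjusted p = 1.28e-21). *F15D4.5* (chromosome II, 13245376 to 13247774) ranged from 177 to 229.8 (median 213) normalized CPM in the et17 libraries, against 1.19, 1.36 and 0.734 in the wild-type libraries (log2 fold change 7.05 ± 0.23, adjusted p = 2.13e-22). In both, the wild-type libraries were near 1 normalized CPM or below and no et17 library came near them. *C07G1.7* (chromosome IV, 8210906 to 8211847) ranged from 62.5 to 81.8 (median 72.4) normalized CPM in the et17 libraries, against 0.0594, 0.109 and 0.0917 in the wild-type libraries (log2 fold change 6.95 ± 0.26, adjusted p = 6.14e-21), and the wild-type values rest on 9 reads in all. It lies within *svh-1* on the opposite strand, and *svh-1*, which encodes a growth factor-like protein, rose as well (8.17 normalized CPM in et17 against 1.51 in wild type, log2 fold change 2.19 ± 0.23, adjusted p = 1.44e-08). Which strand was counted is not stated in the sources used here, so reads of overlapping genes cannot be assigned with certainty.

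*F40D4.13* on chromosome V had the smallest spread for its level among the 12 largest rises, at 29.3 to 31.9 (median 30.5) normalized CPM in et17 libraries and 0.446, 0.272 and 0.245 in wild-type libraries (log2 fold change 5.25 ± 0.17, adjusted p = 3.27e-22). *B0205.13* on chromosome I had the widest, from 37.6 to 138 (median 55.9) normalized CPM in the et17 libraries, against 2.08, 2.45 and 2.17 in the wild-type libraries (log2 fold change 4.54 ± 0.48, adjusted p = 1.7e-08). Its neighbour *B0205.14* behaved alike, with 4.76 to 18.2 (median 10.2) normalized CPM in et17 worms and 0.119, 0.163 and 0.0306 in wild type (log2 fold change 4.07 ± 0.28, adjusted p = 4.71e-13). *B0205.14* overlaps *srz-85* on the other strand. *F15D4.6*, which is next to *F15D4.5*, averaged 12.7 ± 1.496 normalized CPM in et17 worms, against 0.606 ± 0.123 in wild-type worms (log2 fold change 3.58 ± 0.18, adjusted p = 3.25e-17). *C38D9.13*, an ncRNA gene next to *C38D9.2*, averaged 7.26 ± 1.33 normalized CPM in et17 worms, against 0.0793 ± 0.0471 in wild-type worms (log2 fold change 3.73 ± 0.17, adjusted p = 6.16e-18). The wild-type value of *C38D9.13* rests on 8 reads and that of *ZK177.9* on 5, and the log2(CPM + 0.5) scale understates changes of such low genes. *ZK177.9* on chromosome II averaged 11.99 ± 1.67 normalized CPM in et17 worms, against 0.0476 ± 0.0425 in wild-type worms (log2 fold change 4.503 ± 0.32, adjusted p = 6.73e-13), and it overlaps *ZK177.3* on the other strand.

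Among the 12 largest rises were 3 genes with names of their own. *osg-1* ranged from 52.8 to 71.5 (median 62.8) normalized CPM in the et17 libraries, against 3.15, 2.94 and 2.66 in the wild-type libraries (log2 fold change 4.21 ± 0.23, adjusted p = 4.71e-16). *scrm-4*, of the phospholipid scramblase family, averaged 43.8 ± 5.15 normalized CPM in et17 worms, against 3.29 ± 0.803 in wild-type worms (log2 fold change 3.56 ± 0.21, adjusted p = 3.67e-15). *bath-13*, which encodes a BTB and MATH domain protein of the kind that links targets to cullin ubiquitin ligases, averaged 11.6 ± 1.78 normalized CPM in et17 worms, against 0.512 ± 0.05202 in wild-type worms (log2 fold change 3.56 ± 0.21, adjusted p = 3.63e-15). For all 12 genes every et17 library was above every wild-type library, which the rule that chose them required, and no call was lost in any alternative analysis that tested the gene (22 or 23 for each). *osg-1* and *scrm-4* overlap *R02F2.8* and *kpc-1* on the other strand.

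**Figure D3:**
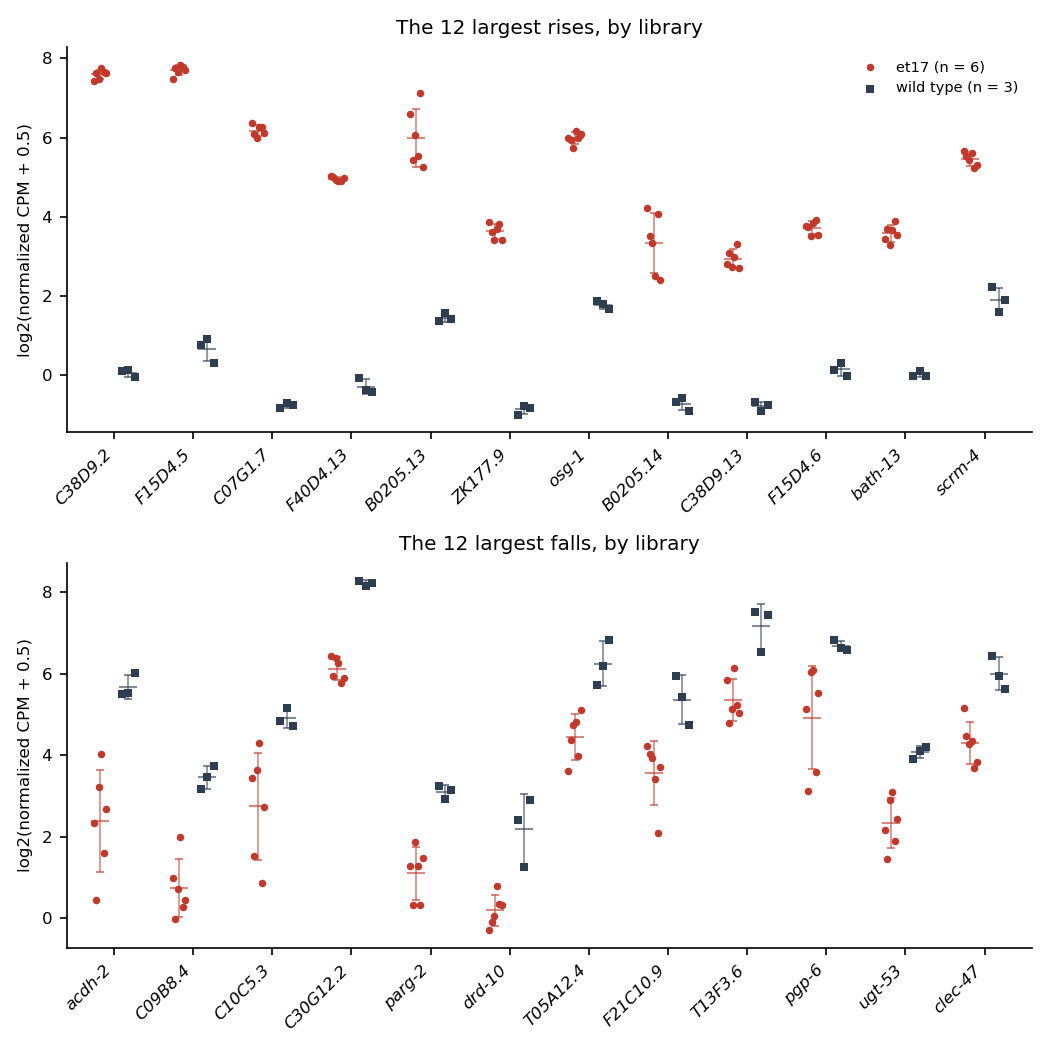
Normalized CPM (log2 of CPM + 0.5) of the 12 largest rises (top) and 12 largest falls (bottom) in each et17 library (circles, n = 6) and each wild-type library (squares, n = 3), with mean and SD. The rises are tight within each group apart from *B0205.13* and *B0205.14*, whereas several falls, such as *acdh-2*, *C10C5.3* and *pgp-6*, spread widely among et17 libraries.

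The largest fall was that of *acdh-2*, which encodes an acyl-CoA dehydrogenase (chromosome II, 5544778 to 5547492). Its libraries ranged from 0.857 to 15.98 (median 5.22) normalized CPM in the et17 libraries, against 44.6, 45.5 and 64.4 in the wild-type libraries (log2 fold change -3.29 ± 0.62, adjusted p = 0.000497). *C30G12.2* was more abundant and varied less, with 54.2 to 86.7 (median 68.9) normalized CPM in et17 libraries and 311, 282 and 299 in wild-type libraries (log2 fold change -2.096 ± 0.41, adjusted p = 0.000962). *C09B8.4* averaged 1.37 ± 1.102 normalized CPM in et17 worms, against 10.6 ± 2.11 in wild-type worms (log2 fold change -2.71 ± 0.51, adjusted p = 0.000505). The groups did not overlap for any of the 12 largest falls, again by the rule. *parg-2*, a poly(ADP-ribose) glycohydrolase, averaged 1.81 ± 0.939 normalized CPM in et17 worms, against 8.15 ± 0.966 in wild-type worms (log2 fold change -2.01 ± 0.39, adjusted p = 0.000844), and *drd-10* averaged 0.679 ± 0.329 normalized CPM in et17 worms, against 4.57 ± 2.58 in wild-type worms (log2 fold change -1.995 ± 0.38, adjusted p = 0.000615). *T05A12.4* averaged 22.6 ± 8.33 normalized CPM in et17 worms, against 79.3 ± 30.4 in wild-type worms (log2 fold change -1.81 ± 0.28, adjusted p = 3.43e-05). The lectin gene *clec-47* and the glucuronosyltransferase gene *ugt-53* fell by 1.703 ± 0.32 and 1.75 ± 0.32 on the log2 scale. These 8 calls held in every alternative analysis that tested the gene (22 or 23 for each). Wild-type levels of some differed between sequencing batches, however. In wild-type libraries of other batches *T05A12.4* averaged 22.05 (n = 6) and 32.19 (n = 3) normalized CPM, near its et17 mean. In the same libraries *parg-2* averaged 2.1 and 6.925, and *drd-10* 1.3 and 6.276. *T05A12.4* aside, all of the 8 genes averaged more in both of these batches than in et17 worms. The cause of these batch differences was not tested. *acdh-2* overlaps the insulin-like peptide gene *ins-13* on the same strand and *drd-10* overlaps *anr-21* on the other.

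The other 4 of the 12 falls were less firm. *C10C5.3* ranged from 1.32 to 19.1 (median 8.21) normalized CPM in the et17 libraries, against 28.3, 35.4 and 25.7 in the wild-type libraries (log2 fold change -2.16 ± 0.58, adjusted p = 0.023), and its call was lost without wild-type replicate 1, 2 or 3 or et17 replicate 2 or 5 (adjusted p = 0.0656 to 0.0943) and by edgeR (adjusted p = 0.0678) and DESeq2 (adjusted p = 0.0526). *pgp-6*, an ABC transporter of the P-glycoprotein family, averaged 38.95 ± 25.7 normalized CPM in et17 worms, against 102 ± 9.399 in wild-type worms (log2 fold change -1.76 ± 0.51, adjusted p = 0.0409), and was not called without wild-type replicate 1, 2 or 3 or et17 replicate 1, 2 or 5 (adjusted p = 0.0513 to 0.187) or by edgeR (adjusted p = 0.138) or DESeq2 (adjusted p = 0.0765). *F21C10.9* (log2 fold change -1.80 ± 0.45, adjusted p = 0.0118) was not called without wild-type replicate 1 (adjusted p = 0.155). *T13F3.6* (log2 fold change -1.80 ± 0.46, adjusted p = 0.0153) was not called without wild-type replicate 1 or 3 (adjusted p = 0.121 to 0.139). et17 replicates 2 and 5 were the lowest libraries for *C10C5.3* and *pgp-6*, and replicate 5 was the lowest for *F21C10.9*.

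The chaperones and proteases of the mitochondrial matrix and inner membrane are the classical output of the mitoUPR. Of 10 such genes tested, 2 rose (*hsp-6* and *dnj-10*, 20% of the list beside 2.72% of all genes) and none fell, and the median log2 change was 0.49 against -0.02 for all genes. *hsp-6* (chromosome V, 4824124 to 4826760) ranged from 1275 to 1750 (median 1453) normalized CPM in the et17 libraries, against 766, 627 and 787 in the wild-type libraries (log2 fold change 1.03 ± 0.17, adjusted p = 7.71e-05). No et17 library overlapped wild type. *dnj-10*, a mitochondrial J-domain co-chaperone, averaged 87.8 ± 13.02 normalized CPM in et17 worms, against 54.4 ± 6.296 in wild-type worms (log2 fold change 0.68 ± 0.14, adjusted p = 0.00267). The AAA protease genes *spg-7* (236 normalized CPM in et17 against 164 in wild type, log2 fold change 0.53 ± 0.19, adjusted p = 0.135) and *ymel-1* (117 normalized CPM in et17 against 84.2 in wild type, log2 fold change 0.47 ± 0.15, adjusted p = 0.0732) and the Lon protease gene *lonp-1* (170.1 normalized CPM in et17 against 124 in wild type, log2 fold change 0.45 ± 0.17, adjusted p = 0.174) had positive values that did not pass. *hsp-60*, the other classical chaperone, stood at 716 ± 83.3 normalized CPM in et17 worms, against 812 ± 104 in wild-type worms (log2 fold change -0.18 ± 0.19, adjusted p = 0.791) and was the only one of the 10 with a negative value. In all, 9 of the 10 had a positive log2 change, against 47.2% of all genes. None of 12 regulators of the response, which include *dve-1*, *ubl-5*, *haf-1* and *lin-65*, passed the test (limma, median -0.14, 0 at an unadjusted p under 0.05, edgeR 0, DESeq2 0).

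Import into mitochondria runs through the TOM and TIM complexes. Of 11 import genes, *timm-17B.2* and *timm-23*, both encoding subunits of the inner membrane translocase, rose and none fell (18.2% higher, beside 2.72% of all genes, median 0.21). *timm-17B.2* ranged from 13.96 to 22.9 (median 18.8) normalized CPM in the et17 libraries, against 6.18, 6.53 and 5.81 in the wild-type libraries (log2 fold change 1.52 ± 0.20, adjusted p = 7.91e-07). *timm-23* averaged 137 ± 33.4 normalized CPM in et17 worms, against 82.8 ± 9.65 in wild-type worms (log2 fold change 0.69 ± 0.15, adjusted p = 0.00379), and its lowest et17 library and its highest wild-type library were level at 93.62. The listed genes of the respiratory chain and of the mitochondrial ribosome showed no called change by limma, edgeR or DESeq2. The median was 0.00 for 66 genes of mitochondrial ribosomal proteins (3 at an unadjusted p under 0.05), 0.05 for 12 complex I subunits (0), -0.09 for 15 subunits of complexes III, IV and V (0) and 0.07 for 12 respiratory subunits encoded in mitochondrial DNA (1).

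Antioxidant enzymes remove reactive oxygen species in separate cell compartments. Of 14 such genes, 4 rose (28.6%, beside 2.72% of all genes) and none fell (median 0.40), and these 4 encode mitochondrial proteins: the thioredoxin *trx-2*, its reductase *trxr-2*, the peroxiredoxin *prdx-3* and the superoxide dismutase *sod-3*. The list does not hold every antioxidant gene: *gpx-8*, a glutathione peroxidase outside it, also rose, as given in the closing section. *trx-2* ranged from 46.6 to 66.3 (median 54.1) normalized CPM in the et17 libraries, against 31.4, 28.6 and 30.2 in the wild-type libraries (log2 fold change 0.84 ± 0.13, adjusted p = 3.64e-05). *trxr-2* averaged 17.7 ± 3.22 normalized CPM in et17 worms, against 10.7 ± 0.936 in wild-type worms (log2 fold change 0.68 ± 0.15, adjusted p = 0.00303), and *sod-3* averaged 10.6 ± 5.58 normalized CPM in et17 worms, against 3.18 ± 0.733 in wild-type worms (log2 fold change 1.49 ± 0.25, adjusted p = 7.98e-05). Of the 4, *prdx-3* was the weakest (176 normalized CPM in et17 against 123 in wild type, log2 fold change 0.49 ± 0.13, adjusted p = 0.0258), and its call was lost without wild-type replicate 1, 2 or 3 or et17 replicate 1, 2 or 5 (adjusted p = 0.0515 to 0.116). The other mitochondrial superoxide dismutase gene, *sod-2* (92.97 normalized CPM in et17 against 80.6 in wild type, log2 fold change 0.20 ± 0.14, adjusted p = 0.616), and the cytosolic genes *sod-1* (146 normalized CPM in et17 against 147 in wild type, log2 fold change -0.03 ± 0.14, adjusted p = 0.961) and *prdx-2* (442 normalized CPM in et17 against 478 in wild type, log2 fold change -0.13 ± 0.15, adjusted p = 0.82) did not pass.

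**Figure D4:**
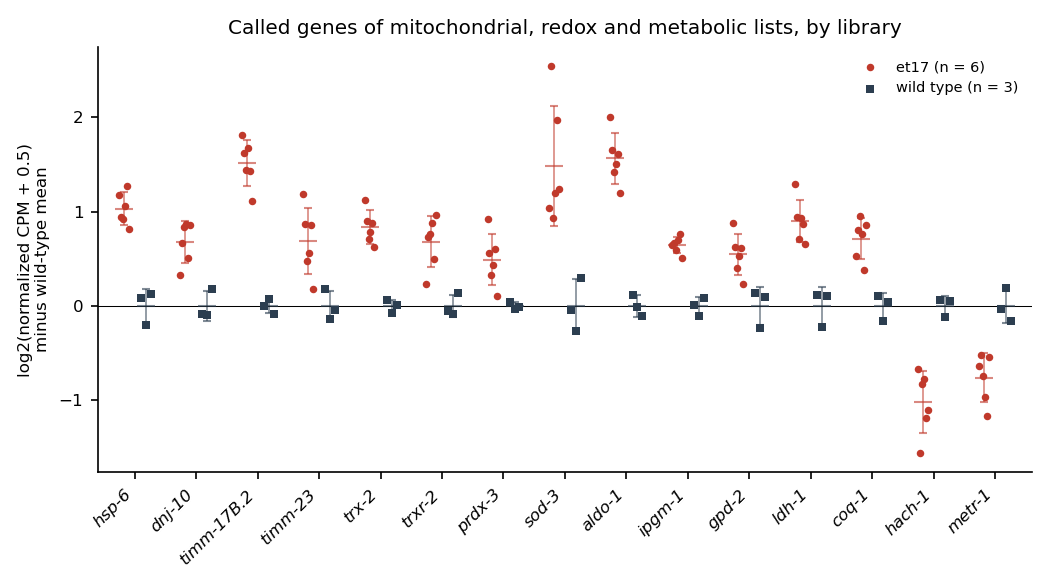
Levels of called genes of the mitochondrial, redox and metabolic lists in each library, as log2(normalized CPM + 0.5) minus the wild-type mean, for et17 (circles, n = 6) and wild type (squares, n = 3) with mean and SD. *hsp-6*, *timm-17B.2* and *aldo-1* stand above the wild-type libraries in every et17 library, and *hach-1* and *metr-1* stand below them in every one.

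Of 19 genes of glycolysis and lactate dehydrogenase, 4 rose (21.1%, beside 2.72% of all genes) and none fell (median 0.20). The largest rise was that of *aldo-1*, a fructose-bisphosphate aldolase, which ranged from 440.5 to 774 (median 567) normalized CPM in the et17 libraries, against 208, 191 and 178 in the wild-type libraries (log2 fold change 1.57 ± 0.18, adjusted p = 1.16e-07). *ipgm-1*, the phosphoglycerate mutase, averaged 342 ± 20.4 normalized CPM in et17 worms, against 218 ± 14.8 in wild-type worms (log2 fold change 0.65 ± 0.12, adjusted p = 0.000224). *gpd-2*, a glyceraldehyde 3-phosphate dehydrogenase, averaged 489 ± 74.9 normalized CPM in et17 worms, against 334 ± 45.04 in wild-type worms (log2 fold change 0.55 ± 0.14, adjusted p = 0.018), and was not called without wild-type replicate 2 (adjusted p = 0.123). *ldh-1*, lactate dehydrogenase, averaged 168 ± 27.5 normalized CPM in et17 worms, against 89.3 ± 11.8 in wild-type worms (log2 fold change 0.90 ± 0.24, adjusted p = 0.0267), and its call was lost without wild-type replicate 1, 2 or 3 or et17 replicate 1 (adjusted p = 0.0624 to 0.108). Without wild-type replicate 2, *aldo-1* and *ipgm-1* were the 2 that remained. No gene of 19 in the citric acid cycle and glyoxylate list passed by limma (median 0.00, 1 at an unadjusted p under 0.05, edgeR 1, DESeq2 1).

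In lipid and methionine metabolism single genes moved in either direction. Of 39 genes of fatty acid oxidation, *acdh-6* and *acdh-11* rose (5.13%) and *acdh-2* fell (2.56%), beside 2.72% and 1.1% of all genes, with a list median of 0.07. *acdh-11* averaged 73.5 ± 7.91 normalized CPM in et17 worms, against 52.1 ± 3.16 in wild-type worms (log2 fold change 0.49 ± 0.10, adjusted p = 0.00151). *acdh-6* ranged from 9.76 to 34.5 (median 22.5) normalized CPM in the et17 libraries, against 2.35, 12.55 and 1.86 in the wild-type libraries (log2 fold change 2.182 ± 0.55, adjusted p = 0.0141). Wild-type replicate 2 lay within the et17 range for *acdh-6*, and the call was lost without wild-type replicate 1 or 3 (adjusted p = 0.163 to 0.213) and by edgeR (adjusted p = 0.0938). In wild-type libraries of other sequencing batches *acdh-6* averaged 18.7 (n = 6) and 8.94 (n = 3) normalized CPM. *acs-2*, an acyl-CoA synthetase, averaged 21.7 ± 8.86 normalized CPM in et17 worms, against 48.7 ± 22.8 in wild-type worms and did not pass (log2 fold change -1.16 ± 0.44, adjusted p = 0.174). Of 11 genes of propionate breakdown, 1 fell (9.09%, beside 1.1% of all genes): *hach-1*, a hydroxyacyl-CoA hydrolase of the propionate shunt, ranged from 125 to 232 (median 189.8) normalized CPM in the et17 libraries, against 385, 339.6 and 384 in the wild-type libraries (log2 fold change -1.02 ± 0.24, adjusted p = 0.00777), and was not called without wild-type replicate 1 or 3 (adjusted p = 0.0574 to 0.0575). Of 13 genes of the methionine cycle and phosphatidylcholine synthesis, 1 fell (7.69%, beside 1.1% of all genes): *metr-1*, methionine synthase, ranged from 208 to 327 (median 289.8) normalized CPM in the et17 libraries, against 458, 536 and 419 in the wild-type libraries (log2 fold change -0.76 ± 0.14, adjusted p = 0.000238). The list's median was -0.34.

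Ubiquinone and other isoprenoids are made through the mevalonate pathway. All 11 genes of this list had positive log2 changes (median 0.34), against 47.2% of all genes, and 3 rose (27.3%, beside 2.72% of all genes). *coq-1*, which makes the side chain of ubiquinone, averaged 81.4 ± 11.9 normalized CPM in et17 worms, against 49.1 ± 4.66 in wild-type worms (log2 fold change 0.71 ± 0.19, adjusted p = 0.0233). *coq-6* (45.7 normalized CPM in et17 against 36.4 in wild type, log2 fold change 0.33 ± 0.09, adjusted p = 0.0403) and *clk-1*, a hydroxylase of ubiquinone synthesis (25.7 normalized CPM in et17 against 19.8 in wild type, log2 fold change 0.37 ± 0.11, adjusted p = 0.049), changed less. None of these calls was firm: *coq-1* was lost without wild-type replicate 1, 2 or 3 or et17 replicate 3 (adjusted p = 0.0538 to 0.0938), *coq-6* without wild-type replicate 1 or 2 or et17 replicate 1, 2, 4 or 5 (adjusted p = 0.0518 to 0.201) and *clk-1* without wild-type replicate 1, 2 or 3 or et17 replicate 1, 2, 3, 4 or 5 (adjusted p = 0.0536 to 0.186). Without wild-type replicate 2 no gene of the list was called and the median was 0.26.

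Detoxification enzymes act on foreign compounds and lipids, and were among the families with large single changes. Of 56 cytochrome P450 genes, 7 rose (12.5%) and none fell, beside 2.72% of all genes that rose. *cyp-14A4* ranged from 5.15 to 9.42 (median 8.17) normalized CPM in the et17 libraries, against 0.565, 0.49 and 0.275 in the wild-type libraries (log2 fold change 3.099 ± 0.45, adjusted p = 9.77e-06). *cyp-33C8* averaged 43.7 ± 12.7 normalized CPM in et17 worms, against 5.84 ± 1.68 in wild-type worms (log2 fold change 2.78 ± 0.34, adjusted p = 2.69e-07) and *cyp-14A1* averaged 16.6 ± 2.42 normalized CPM in et17 worms, against 2.62 ± 0.861 in wild-type worms (log2 fold change 2.48 ± 0.33, adjusted p = 1.2e-06). The pseudogene *cyp-31A1* changed by 0.75 ± 0.14 on the log2 scale (adjusted p = 0.000334). The list's median was 0.12, against -0.02 for all genes. Of 56 UDP-glucuronosyltransferase genes, 6 rose (10.7%) and 3 fell (5.36%), beside 2.72% and 1.1% of all genes (median -0.12). Leaving out wild-type replicate 3 left 3 rises. *ugt-19* ranged from 49.7 to 88.9 (median 61.4) normalized CPM in the et17 libraries, against 11.8, 10.04 and 7.704 in the wild-type libraries (log2 fold change 2.68 ± 0.34, adjusted p = 6.55e-07). *ugt-61* averaged 31 ± 3.28 normalized CPM in et17 worms, against 11.4 ± 1.68 in wild-type worms (log2 fold change 1.41 ± 0.28, adjusted p = 0.000876) and *ugt-50* averaged 48.5 ± 7.11 normalized CPM in et17 worms, against 22.6 ± 6.28 in wild-type worms (log2 fold change 1.105 ± 0.21, adjusted p = 0.000596).

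Of 37 glutathione S-transferase genes, only *gst-29* rose (2.7%, beside 2.72% of all genes). It stood at 2.15 normalized CPM in et17 against 0.678 in wild type (log2 fold change 1.15 ± 0.26, adjusted p = 0.0055), and was not called without wild-type replicate 3 (adjusted p = 0.0805). In wild-type libraries of other sequencing batches *gst-29* averaged 1.94 (n = 6) and 0.49 (n = 3). The median of the family was 0.36, with 30 of 37 values positive (81.1%, beside 47.2% of all genes). None of 5 flavin-containing monooxygenase genes passed by limma (0 at an unadjusted p under 0.05, edgeR 0, DESeq2 0), and *fmo-2* was low in both groups, at 0.137 ± 0.141 normalized CPM in et17 worms, against 0.3897 ± 0.441 in wild-type worms (log2 fold change -0.40 ± 0.35, adjusted p = 0.71). Of 30 short-chain dehydrogenase genes, *dhs-25* (57.3 normalized CPM in et17 against 134 in wild type, log2 fold change -1.29 ± 0.33, adjusted p = 0.0184) and *dhs-26* (1.85 normalized CPM in et17 against 13.1 in wild type, log2 fold change -2.46 ± 0.60, adjusted p = 0.0107) fell (6.67%, beside 1.1% of all genes). *dhs-25* was not called without wild-type replicate 1 or 3 or et17 replicate 2 (adjusted p = 0.053 to 0.151), nor *dhs-26* without wild-type replicate 3 (adjusted p = 0.248). The wild-type libraries of *dhs-26* were at 8.797, 3.87 and 26.7 normalized CPM.

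Of 7 metallothionein and cdr genes, which respond to cadmium and other metals, 3 rose (42.9%, beside 2.72% of all genes) and none fell. *cdr-2* ranged from 103 to 137 (median 119.6) normalized CPM in the et17 libraries, against 20.2, 19.8 and 13.6 in the wild-type libraries (log2 fold change 2.72 ± 0.34, adjusted p = 4.51e-07). *mtl-1*, a metallothionein, ranged from 1.64 to 20.5 (median 7.97) normalized CPM in the et17 libraries, against 0.149, 0.517 and 0.336 in the wild-type libraries (log2 fold change 2.97 ± 0.73, adjusted p = 0.0118). No et17 library overlapped wild type, but the et17 values differed widely among themselves, and the call was lost without wild-type replicate 1 or 3 (adjusted p = 0.0616 to 0.0916). *cdr-4* ranged from 70.8 to 459.9 (median 108) normalized CPM in the et17 libraries, against 24.6, 24.9 and 36.1 in the wild-type libraries (log2 fold change 2.101 ± 0.58, adjusted p = 0.0292), with et17 replicate 5 far above the others, and was not called without wild-type replicate 1, 2 or 3 or et17 replicate 5 (adjusted p = 0.073 to 0.155).

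Markers of other stress pathways were next. *hsp-4*, the endoplasmic reticulum BiP and a marker of the unfolded protein response there, ranged from 383 to 1702 (median 458) normalized CPM in the et17 libraries, against 398, 499.6 and 739.9 in the wild-type libraries (log2 fold change 0.10 ± 0.55, adjusted p = 0.976). *hsp-16.2*, a small heat shock protein of the cytosol, ranged from 0.753 to 616 (median 28.4) normalized CPM in the et17 libraries, against 6.84, 3.81 and 20.1 in the wild-type libraries (log2 fold change 1.17 ± 1.78, adjusted p = 0.868). Both were highest in et17 replicate 5, and the ranges of the other 5 et17 libraries overlapped that of wild type. Without et17 replicate 5 the log2 changes were -0.22 for *hsp-4* and 0.18 for *hsp-16.2*. By limma, none of 17 endoplasmic reticulum stress genes (median -0.06, 2 at an unadjusted p under 0.05, edgeR 0, DESeq2 0) and none of 10 cytosolic heat shock genes (median 0.00, 0 at an unadjusted p under 0.05, edgeR 0, DESeq2 0) passed the test. *gst-4*, a target of the oxidative stress factor SKN-1, averaged 21.4 ± 9.24 normalized CPM in et17 worms, against 14.9 ± 3.94 in wild-type worms (log2 fold change 0.45 ± 0.33, adjusted p = 0.641), and none of 11 genes of the SKN-1 list passed by limma (median 0.10, 1 at an unadjusted p under 0.05, edgeR 0, DESeq2 0). *gst-4* overlaps *dhs-12* on the same strand.

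*nhr-57*, a target of the hypoxia factor HIF-1, was higher in every et17 library than in any wild-type library, at 4.72 to 7.38 (median 5.96) normalized CPM in et17 worms and 3.24, 3.87 and 2.81 in wild type, but did not pass (log2 fold change 0.73 ± 0.23, adjusted p = 0.0666). It passed in 5 alternative analyses, among them DESeq2 (adjusted p = 0.0347). None of 9 genes of the HIF-1 list, *nhr-57* among them, passed by limma (median -0.06, 3 at an unadjusted p under 0.05, edgeR 0, DESeq2 2). Of 13 genes raised by the FOXO factor DAF-16, 3 rose, namely *sod-3*, *mtl-1* and *gpd-2* (23.1%, beside 2.72% of all genes), and none fell (median 0.69). The same 3 rises are counted above in the antioxidant, metallothionein and glycolysis lists. As given there, the calls of *mtl-1* and *gpd-2* were lost when single wild-type libraries were left out. *sodh-1*, an alcohol dehydrogenase on the same list, averaged 34.3 ± 18.4 normalized CPM in et17 worms, against 38.03 ± 27.7 in wild-type worms (log2 fold change -0.14 ± 0.58, adjusted p = 0.963). Among 6 genes lowered by DAF-16 none passed by limma (median -0.12, 1 at an unadjusted p under 0.05, edgeR 0, DESeq2 0). *sodh-1* overlaps *sodh-2* on the other strand, and *gpd-2* overlaps *mai-1* on the same strand.

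Among innate immunity genes, called members of the lectin, lysozyme and pathogen response lists moved in either direction. Of 98 C-type lectin genes, 5 rose (5.1%) and 3 fell (3.06%), beside 2.72% and 1.1% of all genes (median -0.01), and leaving out wild-type replicate 3 left 1 rise, and leaving out wild-type replicate 1 or et17 replicate 1, 2, 3 or 6 left 3. *clec-17* ranged from 1.95 to 15.97 (median 6.47) normalized CPM in the et17 libraries, against 0.208, 0.435 and 0 in the wild-type libraries (log2 fold change 3.37 ± 0.37, adjusted p = 3.35e-08). *clec-52* fell (5.17 normalized CPM in et17 against 10.8 in wild type, log2 fold change -1.03 ± 0.24, adjusted p = 0.00752) but was not called without wild-type replicate 2 (adjusted p = 0.0548), and *clec-238* rose from a very low level (0.895 normalized CPM in et17 against 0.1796 in wild type, log2 fold change 1.01 ± 0.23, adjusted p = 0.0064) but not without wild-type replicate 3 (adjusted p = 0.0938). Among 13 lysozyme genes 1 rose and 1 fell (7.69% each, beside 2.72% and 1.1% of all genes, median 0.39). *lys-2* rose (232 normalized CPM in et17 against 73.8 in wild type, log2 fold change 1.69 ± 0.36, adjusted p = 0.00239, lost without wild-type replicate 3, adjusted p = 0.087) and *lys-5* fell (0.657 normalized CPM in et17 against 1.87 in wild type, log2 fold change -0.996 ± 0.21, adjusted p = 0.00274, lost without wild-type replicate 1 or 2, adjusted p = 0.0519 to 0.0569). Of 11 pathogen response genes, 1 rose and 1 fell (9.09% each, beside 2.72% and 1.1% of all genes, median -0.25). *irg-1* fell (5.62 normalized CPM in et17 against 15.3 in wild type, log2 fold change -1.49 ± 0.36, adjusted p = 0.00956, lost without wild-type replicate 1, adjusted p = 0.0774) and *T24B8.5* rose at the limit of the test (5.92 normalized CPM in et17 against 2.39 in wild type, log2 fold change 1.15 ± 0.34, adjusted p = 0.0497, lost without wild-type replicate 1, 2 or 3 or et17 replicate 1, 2, 3, 4 or 5, adjusted p = 0.0563 to 0.245). By limma, none of 15 antimicrobial peptide genes (median 0.51, 4 at an unadjusted p under 0.05, edgeR 0, DESeq2 0) and none of 16 caenopore genes (median 0.16, 6 at an unadjusted p under 0.05, edgeR 0, DESeq2 0) passed.

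Of 20 pals genes, part of the response to intracellular pathogens, 3 rose (15%, beside 2.72% of all genes) and none fell (median 0.44). *pals-6* ranged from 2.26 to 9.79 (median 3.65) normalized CPM in the et17 libraries, against 0.149, 0.327 and 0.122 in the wild-type libraries (log2 fold change 2.70 ± 0.53, adjusted p = 0.000994). *pals-16* averaged 5.09 ± 0.947 normalized CPM in et17 worms, against 2.58 ± 0.3397 in wild-type worms (log2 fold change 0.85 ± 0.19, adjusted p = 0.00372), and the pseudogene *pals-15* averaged 1.71 ± 0.7097 normalized CPM in et17 worms, against 0.523 ± 0.294 in wild-type worms (log2 fold change 1.09 ± 0.29, adjusted p = 0.0215) and was not called without wild-type replicate 1 or 3 or et17 replicate 5 or 6 (adjusted p = 0.0505 to 0.232). Among 18 intestinal protease genes 1 rose and 1 fell (5.56% each, beside 2.72% and 1.1% of all genes). *asp-8*, an aspartyl protease, rose, with 79.2 to 129 (median 99.4) normalized CPM in et17 worms and 17.1, 16.44 and 7.95 in wild type (log2 fold change 2.91 ± 0.33, adjusted p = 7.38e-08). *asp-17* fell (7.04 normalized CPM in et17 against 16.7 in wild type, log2 fold change -1.18 ± 0.28, adjusted p = 0.0079), though not without wild-type replicate 1 (adjusted p = 0.187). None of the 8 intestine marker genes passed by limma (median 0.00, 1 at an unadjusted p under 0.05, edgeR 0, DESeq2 0, range -0.42 to 0.43).

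The list with the most rises by number was that of F-box and MATH genes, substrate adaptors of ubiquitin ligases that are greatly expanded in nematodes. Of 195 tested (483 annotated), 26 rose (13.3%) and 1 fell, beside 2.72% and 1.1% of all genes (16 rose when wild-type replicate 1 was left out). The median of the family was 0.16, against -0.02 for all genes. Of 59 bath and math genes 12 rose (20.3%) and of 117 fbxa genes 12 rose (10.3%). *bath-45* ranged from 9.55 to 14.3 (median 12.15) normalized CPM in the et17 libraries, against 0.832, 0.98 and 0.5503 in the wild-type libraries (log2 fold change 3.27 ± 0.21, adjusted p = 3.79e-14). *fbxa-192* averaged 14.8 ± 1.47 normalized CPM in et17 worms, against 3.67 ± 1.56 in wild-type worms (log2 fold change 1.93 ± 0.18, adjusted p = 6.12e-10), and *fbxc-43* averaged 2.83 ± 0.481 normalized CPM in et17 worms, against 0.605 ± 0.187 in wild-type worms (log2 fold change 1.59 ± 0.17, adjusted p = 2e-08). The fall was that of *fbxa-211* (3.08 normalized CPM in et17 against 6.68 in wild type, log2 fold change -1.02 ± 0.14, adjusted p = 1.67e-06), named because it was the only one. Members of this family share sequence, and reads of near-identical copies may be assigned unevenly.

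Nuclear hormone receptors are ligand-responsive transcription factors, also expanded in worms. Of 169 tested, 14 rose (8.28%) and 4 fell (2.37%), beside 2.72% and 1.1% of all genes, and the median was 0.06. *nhr-90* ranged from 11.5 to 15.5 (median 12.9) normalized CPM in the et17 libraries, against 3.92, 4.68 and 4.07 in the wild-type libraries (log2 fold change 1.53 ± 0.14, adjusted p = 4.36e-10). *nhr-104* averaged 20.99 ± 2.61 normalized CPM in et17 worms, against 6.98 ± 1.11 in wild-type worms (log2 fold change 1.52 ± 0.16, adjusted p = 1.7e-08), *nhr-132* averaged 8.78 ± 1.23 normalized CPM in et17 worms, against 3.201 ± 0.235 in wild-type worms (log2 fold change 1.32 ± 0.15, adjusted p = 1.33e-07) and *nhr-15* averaged 4.31 ± 0.368 normalized CPM in et17 worms, against 1.51 ± 0.128 in wild-type worms (log2 fold change 1.25 ± 0.16, adjusted p = 5.01e-07). In each of these 4 genes every et17 library was above every wild-type library, as was the case for 4.73% of all genes. Leaving out wild-type replicate 3 left 7 rises, and leaving out single libraries left as few as 1 fall, with wild-type replicate 1 or 2, and 2 with wild-type replicate 3 or et17 replicate 2 or 5.

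**Figure D5:**
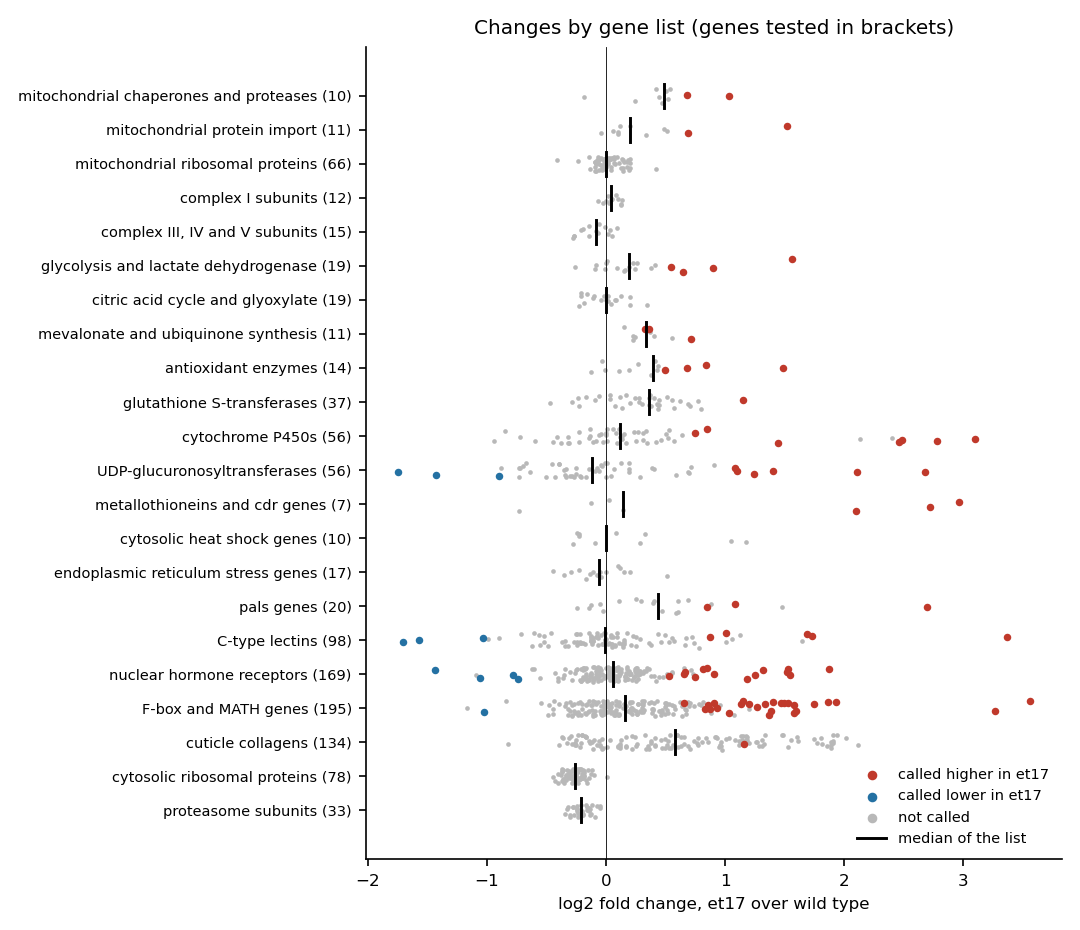
Log2 fold change, et17 over wild type, of every tested gene in 22 lists (number tested in brackets), with genes called higher in red, called lower in blue and the median of each list as a black bar. The F-box and MATH list (26 red points) and the nuclear hormone receptor list (14) hold the most red points by number, and cytosolic ribosomal protein and proteasome genes cluster slightly below 0 with none called.

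Where the genes lie was not used to choose them. Of the 376 genes that rose, 126 were on chromosome V (4.73% of the 2664 tested there) and 25 on chromosome X (1.34% of 1865), beside 1.96% to 2.85% on the other autosomes. Genes that rose often lay next to each other: 109 of them (29%) had a directly neighbouring tested gene that also rose, whereas 5.24% of all tested genes had such a neighbour. Runs of this kind included *fbxa-191*, *fbxa-192* and *fbxa-193* on chromosome V, *bath-20*, *bath-24* and *bath-14* on chromosome II, and *gpx-8*, *F55A3.6* and *F55A3.7* on chromosome I. Among genes that fell, 8 of 152 (5.26%) had a neighbour that fell, against 2.2% of all genes. Pseudogenes made up 38 of the genes that rose (10.1%), against 2.62% of all genes tested. Neighbours can be copies of each other or overlap, and reads shared by them were not separated here. Genes above that overlap another gene on the other strand also include *sod-3*, *trx-2*, *trxr-2*, *cyp-14A4*, *ugt-50*, *dhs-26*, *nhr-104*, *F21C10.9* and *T13F3.6*, and *col-83* and *nhr-57* overlap one on the same strand.

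Cuticle genes are made around each molt, and their values are set beside those of the stage markers. Of 134 cuticle collagen genes only *col-83* rose (0.746%, beside 2.72% of all genes), at 1.57 normalized CPM in et17 against 0.4196 in wild type (log2 fold change 1.16 ± 0.21, adjusted p = 0.000442). Positive values were found in 102 of 134 (76.1%, beside 47.2% of all genes), with a median of 0.58. Of 60 hedgehog- and patched-related genes, which act in molting and cuticle formation, none passed by limma (median 0.46, 11 at an unadjusted p under 0.05, edgeR 0, DESeq2 0). In this list 50 were positive (83.3%, beside 47.2% of all genes). Without wild-type replicate 2, 29 of 134 collagen genes and 8 of 60 hedgehog- and patched-related genes were called higher, with medians of 0.88 and 1.00. The same setting called 504 of all 13837 genes higher. The 11 molting markers had a median of 1.11 in all libraries and 1.90 without wild-type replicate 2, when 3 were called higher. The 6 yolk genes had medians of -0.89 and -1.50 with none called. With the stage index in the model, which is built from the 69 marker genes themselves, the medians were 0.31 for collagens, with 3 called higher, 0.14 for hedgehog- and patched-related genes, 0.29 for molting markers and -0.14 for yolk genes, with none called in the last 3 lists (limma). In that model 588 of all 13837 genes were called higher. *tbb-6*, a beta-tubulin, was the only one of 12 tubulin genes to rise (8.33%, beside 2.72% of all genes). Its libraries ranged from 13.5 to 97.5 (median 26.6) normalized CPM in the et17 libraries, against 3.36, 4.41 and 4.53 in the wild-type libraries (log2 fold change 2.92 ± 0.73, adjusted p = 0.0135), and was not called without wild-type replicate 1 or 3 (adjusted p = 0.0602 to 0.0916).

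Genes of protein synthesis and turnover had small negative values without passing the test. Of 78 cytosolic ribosomal protein genes none passed by limma (22 at an unadjusted p under 0.05, edgeR 0, DESeq2 2), 1 had a positive value (1.28%, beside 47.2% of all genes) and the median was -0.26. Of 33 proteasome subunit genes none passed by limma (9 at an unadjusted p under 0.05, edgeR 0, DESeq2 3) and none had a positive value (median -0.21). With library size as the only scaling these medians were -0.14 and -0.10, while the median of all genes was 0.09. Among 62 abu and pqn genes 1 rose and 1 fell (1.61% each, beside 2.72% and 1.1% of all genes). *pqn-21* rose (67.6 normalized CPM in et17 against 36.5 in wild type, log2 fold change 0.88 ± 0.17, adjusted p = 0.00101) and *pqn-60* fell (1.49 normalized CPM in et17 against 3.02 in wild type, log2 fold change -0.81 ± 0.22, adjusted p = 0.0284, lost without wild-type replicate 1 or 2 or et17 replicate 1, 2 or 5, adjusted p = 0.0512 to 0.147). By limma, no gene passed among 75 neuropeptide genes (7 at an unadjusted p under 0.05, edgeR 0, DESeq2 0), 16 insulin-like peptide genes (1 at an unadjusted p under 0.05, edgeR 0, DESeq2 1), 17 histone genes (3 at an unadjusted p under 0.05, edgeR 1, DESeq2 1), 17 autophagy genes (0 at an unadjusted p under 0.05, edgeR 0, DESeq2 0) or 16 fatty acid desaturase and elongase genes (2 at an unadjusted p under 0.05, edgeR 1, DESeq2 1).

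The second gain-of-function strain, et15, allows the 2 alterations of the same protein to be set side by side. Between et17 and et15, 1392 genes passed the test (10.1%), of which 632 were higher (4.57%) and 760 lower (5.49%) in et17. Of the 376 genes that rose in et17, 122 were lower in et17 than in et15 and 14 were higher. Of the 152 that fell, 53 were higher in et17 than in et15 and 2 were lower. For these genes the et17 level thus lay between et15 and wild type more often than beyond et15, where the 2 strains differed. Both strains are compared with the same 3 wild-type libraries, so agreement between their changes is not independent. The strains also differed in stage markers: molting sums were 275.0 to 825.1 normalized CPM in et17 and 971.2 to 3564 in et15, and yolk sums 22090 to 46590 in et17 and 1674 to 14380 in et15. With a stage marker index added to the model, 245 genes differed. By edgeR on recovered reads the split was 411 higher and 776 lower. The number called was 603 without et15 replicate 2, 429 without et15 replicate 3, and 836, 624 and 794 without et17 replicates 2, 4 and 5.

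Neither of the 2 largest rises passed the test between the strains (limma). *C38D9.2* averaged 194 ± 15.7 normalized CPM in et17 and 157 ± 33.2 in et15 (log2 difference et17 minus et15 0.33 ± 0.23, adjusted p = 0.335), and *F15D4.5* averaged 209 ± 18.5 normalized CPM in et17 and 202 ± 29.8 in et15 (log2 difference et17 minus et15 0.05 ± 0.20, adjusted p = 0.878). *hsp-6* averaged 1490 ± 179.5 in et17 and 1464 ± 192 in et15 (log2 difference et17 minus et15 0.03 ± 0.15, adjusted p = 0.92). *timm-17B.2* did not pass either (log2 difference et17 minus et15 -0.04 ± 0.17, adjusted p = 0.891). Others were lower in et17: *F40D4.13* averaged 30.5 ± 1.04 in et17 and 51.8 ± 8.301 in et15 (log2 difference et17 minus et15 -0.74 ± 0.15, adjusted p = 0.0019), *B0205.14* averaged 10.8 ± 5.56 normalized CPM in et17 and 24.9 ± 7.97 in et15 (log2 difference et17 minus et15 -1.27 ± 0.24, adjusted p = 0.000978), and *pals-6* averaged 4.52 ± 2.82 normalized CPM in et17 and 18.5 ± 11.2 in et15 (log2 difference et17 minus et15 -1.88 ± 0.46, adjusted p = 0.00864). Among the falls, *T13F3.6* was less reduced in et17, at 43.05 ± 16.53 normalized CPM against 5.33 ± 3.56 in et15 (log2 difference et17 minus et15 3.09 ± 0.39, adjusted p = 1.66e-06), as was *acdh-2*, at 6.45 ± 5.43 against 0.421 ± 0.433 in et15 (log2 difference et17 minus et15 2.63 ± 0.53, adjusted p = 0.00161). *C38D9.13* (log2 difference et17 minus et15 0.47 ± 0.15, adjusted p = 0.0416) and *F15D4.6* (log2 difference et17 minus et15 0.50 ± 0.15, adjusted p = 0.0318) were higher in et17 than in et15.

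The deletion libraries of this batch stood apart from it. Counting reads gene by gene, the 2 libraries most alike among the 40 with a group were atfs1DEL replicate 2 and a library labelled atfs1 of another sequencing batch (mean chi-square per gene 8.14, where 1 is sampling noise), and the next was atfs1DEL replicate 3 with another such library (8.20). Pairs within a single group ranged from 19.2 to 288. No gene differed between the 3 deletion libraries and the 3 atfs1 libraries of the other batch by limma (11 at an unadjusted p under 0.05, no other tool run), while 3248 genes differed between the wild-type libraries of those 2 batches. The source of the worms and the genotype can therefore not be told apart in a comparison with et17. That comparison called 6801 genes (49.2%), of which 2992 were higher (21.6%) and 3809 lower (27.5%) in et17, while edgeR called 3725 higher and 2919 lower. *hsp-6* averaged 1490 ± 179.5 normalized CPM in et17 and 596 ± 89.6 in the deletion strain, and *cdr-2* averaged 119.6 ± 13.6 in et17 and 13.7 ± 1.16 in the deletion strain (SD, n = 6 and 3). Not every gene that rose against wild type differed from the deletion strain. *tbb-6*, *clk-1* and *cdr-4* did not pass (log2 difference et17 minus deletion -1.345 ± 0.73, 0.04 ± 0.11 and 0.93 ± 0.58, adjusted p = 0.126, 0.77 and 0.182, limma).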

How the data were processed

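Poly(A) RNA of whole worms was sequenced (Kapa stranded mRNA-seq kit, single reads). Per the labels and the study's methods, reads were demultiplexed with bcl2fastq 2.18, aligned to WBcel235 with STAR 2.5.2b, counted per gene on the Ensembl 89 annotation and converted to CPM with edgeR 3.20.1. Which strand was counted is not given in the sources used here, and neither is the rule of the gene filter. The authors deposited an unnormalized CPM table of 46739 genes, whose steps gave whole reads for 100% of values within 0.01 of a read, and a filtered table of 13837 genes whose normalized CPM are a depth-scaled signal, not counts, as the authors deposited them. Only the recovered reads were tested as counts.

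The main test was limma 3.58.1 with a trended prior on log2(normalized CPM + 0.5), with 1 mean for each of the 10 combinations of genotype and batch over 40 libraries, and Benjamini-Hochberg adjustment over all 13837 genes at 0.05. A fold change on this scale understates changes of low genes. The 3 libraries labelled NA238, whose group the labels do not give, were left out. Libraries of 1 group were separate RNA isolations. The spread behind each p-value was pooled over all 40 libraries, not taken from the compared libraries alone. The atfs1DEL libraries and the atfs1 libraries of another batch entered as separate groups. Their closest pairs were more alike (mean chi-square per gene 8.14 and 8.20) than any pair within a group (19.2 or more). Whether they are repeat libraries was not tested. Genes named were *atfs-1*, the 12 that rose most and the 12 that fell most on the log2 scale (called, groups not overlapping, 1 group averaging 1 normalized CPM or more), up to 4 called members of smallest p in each of 59 lists, and genes of the study's RT-PCR assays. Lists and members were chosen with earlier results of these data known. Other genes were named after their values were seen. Alternatives were other pseudocounts (0.1 and 2), library size scaling, no gene filter, a minimum of 5 CPM, fewer libraries, an additive batch term, the replicate number as a block, edgeR 4.0.16, DESeq2 1.42.0, stricter thresholds, a stage index and leaving out each library. The fits were tested on simulated data, drawn gene by gene without batch or stage differences, so that test does not cover such differences. Gene positions came from the Ensembl 115 annotation of WBcel235.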

Additional observations from a re-analysis of the deposited data

Results flagged for a closer look

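A single et17 library lay far from the other 5, beyond Dixon's critical value of 0.625, in 6 of the 87 genes named. This share is close to the 5% that chance alone gives, so the values below are described only. et17 replicate 5 was the highest library for 4 of them, at 127.1 normalized CPM for *atfs-1*, 1702 for *hsp-4*, 615.8 for *hsp-16.2* and 459.9 for *cdr-4*. et17 replicate 4 was the highest for the other 2, at 3.507 normalized CPM for *C09B8.4* and 6.109 for *dhs-26*. *hsp-4* and *hsp-16.2* encode stress chaperones of the endoplasmic reticulum and the cytosol, and neither passed the test with all libraries.

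Genes left out by the authors' filter were read from the unnormalized CPM table, where 328 of 32902 had an et17 mean of at least 1 CPM. In 37 of these 328 (11.3%) every et17 library was above every wild-type library, beside 4.73% of the genes in the filtered table, and a minimum set on the et17 mean favours such genes. For 3 the lowest et17 library was at least 3 times the highest wild-type one. *F55A3.8* stood at 0.7859 CPM in its lowest et17 library and averaged 1.02 CPM in et17 and 0.0374 CPM in wild type. *H25P06.5* stood at 1.424 CPM in its lowest et17 library and averaged 1.79 CPM in et17 and 0.254 CPM in wild type. *T23B12.14* stood at 1.117 CPM in its lowest et17 library and averaged 1.43 CPM in et17 and 0.14 CPM in wild type.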

How the results depend on the processing

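Of the 79 named genes that were called, 42 kept the call in every alternative that tested them (22 or 23 each, since low genes fail the minimum of 5 CPM) and 52 with each of the 9 libraries left out in turn, and none of the 87 changed direction with a call on either side. Leaving out 1 library gave 243 to 504 genes higher and 55 to 167 lower than in wild type, with both extremes from wild-type libraries, 429 to 1913 genes between et17 and et15, and 5194 to 6890 between et17 and atfs1DEL. Genes lower than in wild type numbered 62 with library size as the only scaling, 92 with no gene filter, 76 with the 9 libraries alone, 100 with batch 1 alone, 388 with an additive batch term and 59 at an adjusted p under 0.01. A minimum of 5 CPM left 197 higher and 100 lower, and a change of at least 2-fold 216 and 40. A stage index as covariate gave 588 higher, and 245 genes between et17 and et15. Same-numbered et17 and wild-type libraries did not deviate together (correlations 0.10, -0.38 and -0.62). With 3 wild-type libraries these values cannot decide whether the numbers mark a pairing. A replicate block gave 446 higher and 202 lower than in wild type and 2170 genes between et17 and et15, and ended the calls of *ldh-1*, *coq-1*, *clec-52* and *lys-5*. The cause of these shifts was not tested. Low genes, such as *C07G1.7* with 9 wild-type reads, have folds that depth limits.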

Other observations

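Among called genes, 2 groups outside the lists of the report stood out, and both were put together after their values were seen, so their counts describe these libraries only. Of 12 tested genes of mitochondrial translation, 11 had positive values (91.7%, beside 47.2% of all genes). The median log2 change was 0.36, against -0.02 for all genes, and 6 rose (50%, beside 2.72% of all genes). They included the elongation factor genes *tsfm-1* (113 ± 12.7 normalized CPM in et17 worms, against 50.1 ± 5.35 in wild-type worms, log2 fold change 1.16 ± 0.23, adjusted p = 0.000826), *gfm-1* (218 ± 13.5 normalized CPM in et17 worms, against 142 ± 8.39 in wild-type worms, log2 fold change 0.61 ± 0.10, adjusted p = 6.14e-05) and *tufm-1* (383 normalized CPM in et17 against 278 in wild type, adjusted p = 0.0284), and the cysteinyl-tRNA synthetase gene *cars-2* (5.87 normalized CPM in et17 against 3.41 in wild type, adjusted p = 0.00673). The other synthetase genes of the group, *lars-2*, *sars-2*, *dars-2*, *nars-2* and *pars-2*, did not pass (log2 fold changes -0.04 to 0.26). Leaving out wild-type replicate 1 or wild-type replicate 2 left 3 calls (medians 0.40 and 0.26).

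Of 24 tested genes of the nucleolus and ribosome assembly, none had a positive value (median -0.33), against 47.2% of all genes, and 9 fell (37.5%, beside 1.1% of all genes). They included *pro-3* (60.6 ± 6.33 normalized CPM in et17 worms, against 86.8 ± 4.21 in wild-type worms, log2 fold change -0.52 ± 0.10, adjusted p = 0.000673), *ddx-27* (73.3 normalized CPM in et17 against 98.5 in wild type, adjusted p = 0.00379) and *rpoa-2*, a subunit of RNA polymerase I (118 normalized CPM in et17 against 168 in wild type, adjusted p = 0.0305). With library size as the only scaling no gene of the group was called and the median was -0.22, while the median of all genes was 0.09. Leaving out wild-type replicate 1 left 3 calls, and leaving out replicate 3 left 2.

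Single genes of transport and redox metabolism that no list held were also high, and were named after their values were seen. *folt-1*, a folate transporter, averaged 55.4 ± 4.22 normalized CPM in et17 worms, against 5.79 ± 1.78 in wild-type worms (log2 fold change 3.19 ± 0.22, adjusted p = 4.71e-13), and overlaps *C06H2.7* on the other strand. *gpx-8*, a glutathione peroxidase, averaged 7.05 ± 0.465 normalized CPM in et17 worms, against 0.607 ± 0.131 in wild-type worms (log2 fold change 2.78 ± 0.21, adjusted p = 4.29e-12). *nnt-1*, the mitochondrial nicotinamide nucleotide transhydrogenase, ranged from 8.46 to 33.5 (median 20.7) normalized CPM in the et17 libraries, against 4.399, 10.4 and 1.25 in the wild-type libraries (log2 fold change 2.19 ± 0.45, adjusted p = 0.00164), and the groups overlapped. *fgt-1*, a glucose transporter (196 normalized CPM in et17 against 108 in wild type), *glna-1*, a glutaminase (27.8 normalized CPM in et17 against 14.6 in wild type), *cuc-1*, a copper chaperone (81.5 normalized CPM in et17 against 31.9 in wild type), and *hrg-2*, a heme-responsive gene (3.73 normalized CPM in et17 against 0.627 in wild type), changed by 0.85 ± 0.15, 0.90 ± 0.19, 1.31 ± 0.24 and 1.91 ± 0.30 on the log2 scale.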
